A study of Rattus norvegicus with 16 samples.

Results

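The genes of the interleukin-1, interleukin-6 and TNF cytokines were examined in the hippocampus of 16 rats, 1 array per rat. The 10 genes (Il1a, Il1b, Il1rn, Il18, Il6, Lif, Osm, Tnf, Il10 and Csf1) were taken by the gene name that the scanner files give a probe, which found 11 of the 30367 probes of the design: 1 for each gene and a second for Il1a. The rats were Sprague-Dawley, and adult and male by the methods. Naïve rats (n = 3) had no surgery and no drug. Sham rats (n = 2) were anesthetized and prepared but not injured, TBI rats (n = 3) received a fluid percussion injury, a pressure pulse to the brain, and the drug groups received the same injury with PMI (n = 3), JM6 (n = 3) or E33 (n = 2). PMI and JM6 were given by mouth, PMI is the compound that the methods call PMI-006, and E33 is the label of the rats that the methods describe as given estradiol. Whole hippocampus was taken 24 hours after injury. No drug was given to an uninjured rat, so each drug group carries the injury as well.

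Interleukin-1 alpha and beta (Il1a, Il1b) are the first signals of inflammation in injured brain. They act on the same receptor, which the interleukin-1 receptor antagonist (Il1rn) occupies without signalling, and interleukin-18 (Il18) is a relative that is cut to its active form by caspase-1, as interleukin-1 beta is. Interleukin-6, leukemia inhibitory factor (Lif) and oncostatin M (Osm) share the receptor chain gp130, which signals through Stat3. Tumor necrosis factor (Tnf) acts on its own receptors, interleukin-10 (Il10) restrains inflammation, and Csf1 sustains microglia and macrophages.

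All values are log2 of a probe's signal divided by the 75th percentile of the detected probes on its array, so that 0 is the level of a well expressed gene and each step of 1 is a doubling. A probe counts as detected where the scanner software flagged it well above background. The 16 arrays had between 16274 and 24979 detected probes: 16274 to 18239 on the Naïve, Sham and TBI arrays, which were scanned in a first session, and 20256 to 24979 on the drug arrays, which were scanned in a second. Of the 7 neuronal markers on the array, 6 or 7 were detected on every array, while Prox1, a marker of dentate granule cells, was detected on 1, 0, 0, 3, 2 and 2 arrays of the Naïve, Sham, TBI, TBI+PMI, TBI+JM6 and TBI+E33 groups. The summed level of choroid plexus markers ranged from 18.9 to 15200% of the 75th percentile, with 490 to 12300% in Sham and 18.9 to 354% in TBI rats, and how much choroid plexus each dissection held was not tested. In whole tissue, more cells of a type and more RNA per cell cannot be told apart.

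Positions of the probes are those of build rn4, and no rn4 annotation was used here, so no exon or UTR is assigned. The 2 Il1a probes lay at chr3:116913748-116913807 and chr3:116914826-116914885 and the Il1b probe at chr3:116964465-116964524, all on the minus strand, with the first Il1a probe 50.7 kb from that of Il1b. The Il1rn probe lay at chr3:2613130-2613189, that of Tnf at chr20:3663558-3663617, that of Csf1 at chr2:203292994-203293053 and that of Il10 at chr13:43957707-43957766. The 60 bases of the Il6 probe cover 1285 bases of chromosome 4 (chr4:457279-458563), so the probe crosses a gap between them. The Lif and Osm probes lay 30.6 kb apart. The Il1a (first probe), Il1b, Il6 and Csf1 probes were each printed as 10 spots per array, and the others as 1.

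The probes of Il18 (chr8:53943005-53943064), Lif (chr14:84890562-84890621) and Osm (chr14:84859880-84859939), all on the plus strand, are shown because each gene rests on this 1 spot per array, and because Lif and Osm were detected only on arrays of the second scan session. They are written 5′ to 3′ in the sense of the transcript.
Il18: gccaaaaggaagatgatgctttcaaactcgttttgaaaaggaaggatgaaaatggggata
Lif: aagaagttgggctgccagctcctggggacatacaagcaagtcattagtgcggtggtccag
Osm: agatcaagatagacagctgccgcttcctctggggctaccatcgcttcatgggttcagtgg
Of the 60 bases, 23 are G or C in the Il18 probe and 33 in each of the Lif and Osm probes.

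For Il1rn and Tnf, which were called against both control groups after injury, and for Il1b, which was not, the 250 bases before the RefSeq start (GRCr8) are shown so that their promoters can be set side by side. Of the 10 genes, 6 had a promoter in the table: Il1a, Il1b, Il1rn, Il18, Il6 and Tnf. Capitals mark the TATA box (TATAAA, given strand) and the NF-kB pattern, GGG and CC with any 5 bases between them (searched on both strands).
Il1b, chr3:137036582-137036831, minus strand: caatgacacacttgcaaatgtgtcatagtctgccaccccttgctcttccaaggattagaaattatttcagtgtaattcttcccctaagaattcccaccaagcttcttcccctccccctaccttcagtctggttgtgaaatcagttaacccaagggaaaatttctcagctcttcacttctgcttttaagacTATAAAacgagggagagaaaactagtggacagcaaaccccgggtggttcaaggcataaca
Il1rn, chr3:27520072-27520321, plus strand: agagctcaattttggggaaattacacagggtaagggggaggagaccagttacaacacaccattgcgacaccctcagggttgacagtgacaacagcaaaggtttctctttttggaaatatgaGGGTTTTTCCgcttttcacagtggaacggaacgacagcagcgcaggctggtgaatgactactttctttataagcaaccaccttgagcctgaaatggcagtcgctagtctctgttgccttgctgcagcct
Tnf, chr20:3626435-3626684, plus strand: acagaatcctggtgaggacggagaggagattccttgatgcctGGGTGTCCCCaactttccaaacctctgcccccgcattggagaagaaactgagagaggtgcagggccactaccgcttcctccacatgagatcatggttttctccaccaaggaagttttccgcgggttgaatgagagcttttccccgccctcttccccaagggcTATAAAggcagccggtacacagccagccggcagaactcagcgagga
The NF-kB pattern was found in 4 of the 6 promoters (Il1rn, Il18, Il6 and Tnf), beside 42.3% of all 33469 promoters of the table, and TATAAA in 3 of the 6 (Il1a, Il1b and Tnf), beside 8.06%. The STAT motif TTCNNNGAA (both strands) was found in 0 of the 6, beside 7.67%, the AP-1 motif TGANTCA (both strands) in that of Il1a alone, beside 6.34%, and the CRE motif TGACGTCA (both strands) in that of Il6 alone, beside 1.59%.

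After TBI, the interleukin-1 receptor antagonist and Tnf were higher than in either control group, and Csf1 was higher than in Naïve rats. Il1rn was 6.97-fold and Tnf 6.35-fold higher in TBI than in Naïve rats, and 8.62-fold and 5.48-fold higher than in Sham rats. Each was detected on 1 Naïve and 1 Sham array, so these folds depend in part on the background level. Il1b was detected in 2 of the 3 TBI rats and in no Naïve or Sham rat, with a rise that did not pass the test. Il6, Lif, Osm and Il10 were not detected in any Naïve, Sham or TBI rat.

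The antagonist Il1rn measured -7.34, -5.61 and -6.03 in the Naïve rats, -7.29 and -5.97 in the Sham rats, and -5.04, -2.58 and -2.95 in the TBI rats. All TBI rats lay above all 5 control rats, TBI rat 1 by the least, and 1 Naïve and 1 Sham array detected the probe. The log2 difference was 2.80 (SE 0.69, 95% interval 1.30 to 4.30) from Naïve and 3.11 (SE 0.77, 1.43 to 4.78) from Sham rats, with limma adjusted p of 0.0384 and 0.0286.

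Tnf measured -5.23, -5.78 and -7.53 in the Naïve rats, -6.66 and -5.27 in the Sham rats, and -3.52, -3.38 and -3.64 in the TBI rats. The TBI rats lay close together and apart from the controls, of which 1 Naïve and 1 Sham array detected the probe. The log2 difference was 2.67 (SE 0.50, 1.59 to 3.74) from Naïve and 2.45 (SE 0.56, 1.25 to 3.66) from Sham rats, with limma adjusted p of 0.0135 and 0.0206. The TBI rats shared a slide with 1 Naïve rat, on whose array Tnf, Il1rn and Il1b were not detected. Within that slide Il18 differed by 1.05 and Csf1 by 0.96, each against that 1 array, and no slide held both TBI and Sham rats.

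Csf1, the growth factor of microglia, was detected on all 16 arrays. It measured -2.41, -1.83 and -2.35 in the Naïve rats, -2.19 and -1.88 in the Sham rats, and -1.56, -1.11 and -1.47 in the TBI rats. The TBI rats lay above every control, and the difference was smaller than that of Il1rn or Tnf: 0.82 (SE 0.21, 0.36 to 1.27) from Naïve rats, with a limma adjusted p of 0.0448, and 0.65 (SE 0.23, 0.15 to 1.16) from Sham rats, with an adjusted p of 0.0974.

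Interleukin-1 beta measured -7.94, -7.37 and -7.81 in the Naïve rats and -8.02 and -7.69 in the Sham rats, none of them detected. The TBI rats measured -7.52, -3.56 and -4.59: rat 1 was at the level of the controls and not detected, and rats 2 and 3 lay far above. Each array value is a mean of 8 to 10 spots, whose SD was 0.0912 to 0.409 where the probe was detected, so the gap between TBI rats was larger than the spread between spots. The measured difference from Naïve rats was 2.48 (SE 0.76) and from Sham rats 2.63 (SE 0.85), with limma adjusted p of 0.0831 and 0.0702. Against the detection floor of these control arrays the TBI mean was 1.77-fold and 2.14-fold higher. The floor is the lowest signal that counts as detected on an array, or the probe's own signal where that was higher. These folds are not strict bounds, since the TBI mean takes undetected rat 1 at its measured value. Folds given below as at least use the same floor, for a group in which every array detected the gene. They hold for this floor and scaling alone, since a probe can also go undetected above the floor. Without TBI rat 1 the difference was 3.63 from Naïve and 3.78 from Sham rats, with adjusted p of 0.00127 and 0.000923.

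Interleukin-18 was detected in every rat, at -4.50, -4.37 and -4.36 in the Naïve, -4.83 and -4.04 in the Sham and -4.12, -2.85 and -2.95 in the TBI group. TBI rat 1 overlapped the Sham rats, and rats 2 and 3 stood above. The difference was 1.10 (SE 0.30) from Naïve and 1.13 (SE 0.34) from Sham rats, with limma adjusted p of 0.0582 and 0.0557. Without TBI rat 1, the lowest of the 3, it was 1.51 and 1.53, with limma adjusted p of 0.00313 and 0.00234. These were the largest values of all alternatives. From Naïve rats the alternatives ranged from 0.84 to 1.51, called in 6 of 20. From Sham rats they ranged from 0.73 to 1.53, called in 5 of 19.

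Interleukin-1 alpha ran the other way between the control groups. Its 10-spot probe measured -4.58, -5.19 and -5.11 in the Naïve rats, all detected, -6.41 and -7.14 in the Sham rats, neither detected, and -4.89, -5.53 and -5.99 in the TBI rats, of which the first 2 were detected. The Sham rats lay below all others. The difference between Sham and Naïve rats was -1.82 (SE 0.49, limma adjusted p = 0.0400), or at least 2.56-fold lower in Sham rats, and within the slide that held 2 rats of each group it was -1.89. With a normexp background correction the difference between Sham and Naïve rats was -0.63. The TBI rats differed from Naïve rats by -0.51 (SE 0.44, limma adjusted p = 0.561) and from Sham rats by 1.31 (SE 0.49, limma adjusted p = 0.111). Against the floor of the Sham arrays the TBI mean was 1.80-fold higher, with undetected TBI rat 3 at its measured value. The second Il1a probe was detected on 2 of the 16 arrays, TBI 3 at -4.76 and TBI+JM6 3 at -4.96, and was not tested, so it gives no check on the first.

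In the interleukin-6 family, the 8 Naïve, Sham and TBI arrays measured Il6 between -8.24 and -7.36, Lif between -8.40 and -5.81 and Osm between -8.43 and -6.24, none of them detected. Il10 was detected on none of the 16 arrays, and its values, from -8.63 to -7.76, lay at the bottom of the scale in every group. No fold change is given for these genes among Naïve, Sham and TBI rats.

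**Figure D1:**
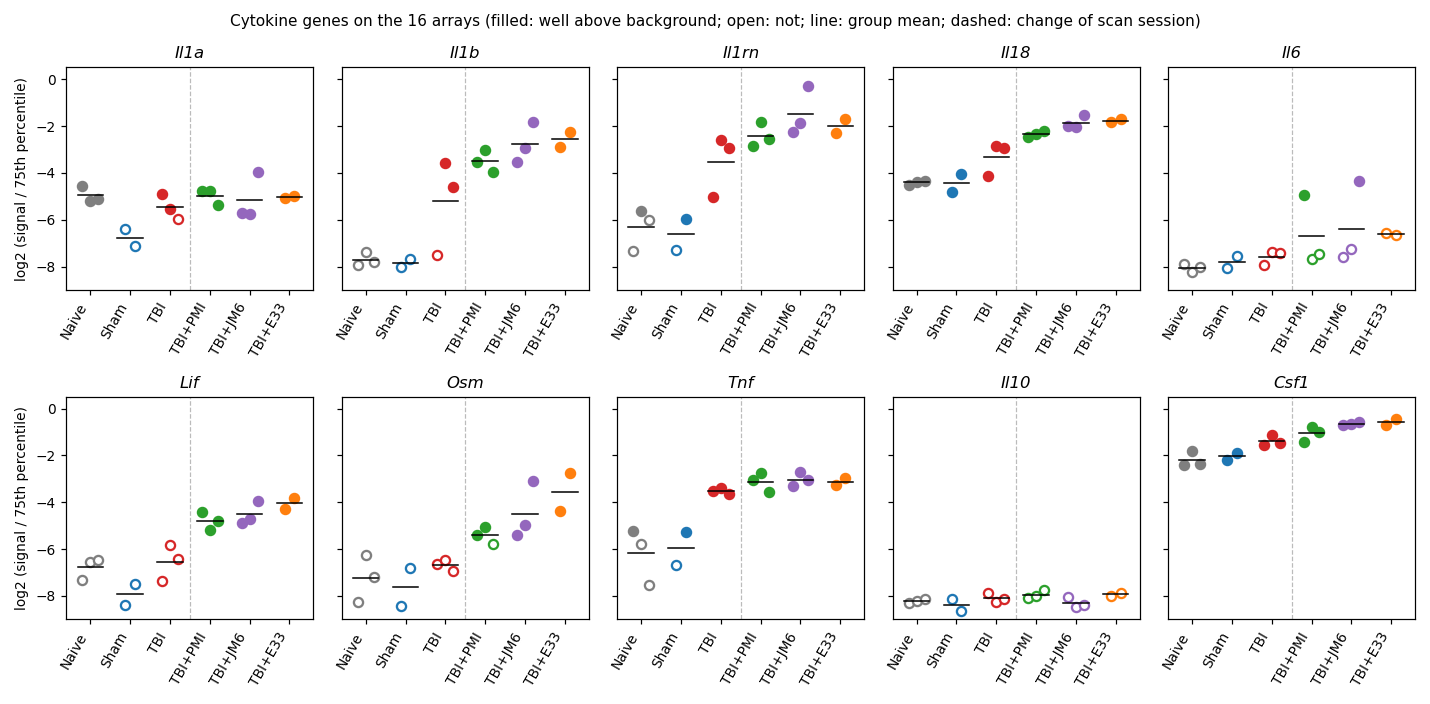
Each panel gives 1 gene and each point 1 array, as log2 of the signal over the array's 75th percentile, by group. Filled points were well above background, open points were not, black lines are group means, and the dashed line divides the first scan session from the second. Tnf and Il1rn separate the TBI rats from the Naïve and Sham rats, Il1b does so in 2 of 3 TBI rats, and Il10 is open throughout.

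Of the 10 genes, 8 were tested, those with a probe detected on every array of at least 1 group. Lif, Osm and Il1b entered only through the drug groups, where they measured highest. In TBI vs Naïve rats 3 of the 8 were called higher and 0 lower at a limma adjusted p under 0.05, beside 2.98% of the 22821 tested probes called higher and 1.73% lower. In TBI vs Sham rats 2 were called higher and 0 lower, beside 2.92% and 6.45%, and in Sham vs Naïve rats 0 were called higher and 1 lower, beside 6.54% and 1.51%. All TBI arrays lay above all Naïve arrays for 4 of the 8 genes, beside 12.2% of probes, and above all Sham arrays for 6 of the 8, beside 16.8%. Of these 6, only Il1rn, Tnf and Csf1 were detected on every TBI array. The order rests on values under background in part for Il1a and Il1b, and wholly for Lif. For a median, Lif and Osm were left out as undetected in both groups, and other undetected groups were set at the floor. The median log2 difference of the other 6 genes was 0.96 from Naïve and 1.11 from Sham rats, beside 0.04 and -0.03 for all tested probes. The split of calls over all probes moved with the scaling. It was 680 higher and 395 lower in TBI vs Naïve rats and 1147 and 91 with E1A spike-in scaling. In TBI vs Sham rats it was 666 and 1472, and 850 and 968 with quantile normalization. In Sham vs Naïve rats it was 1493 and 345, and 750 and 563 with quantile normalization.

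Leaving out single rats changed the calls, other than that of Tnf against Naïve rats. Without TBI rat 1, 5 genes were called higher than in Naïve rats (Csf1, Il1b, Il18, Il1rn and Tnf) and 5 higher than in Sham rats (Il1b, Il18, Il1rn, Lif and Tnf), although Lif was detected in neither group. Without TBI rat 2, TBI rat 3, Naïve rat 1 or Naïve rat 3, 1 gene (Tnf) was called against Naïve rats. Against Sham rats, 0 genes were called without TBI rat 2, TBI rat 3 or Sham rat 1, and 1 (Tnf) without Sham rat 2. The call of Il1a in Sham rats was lost without any 1 of the 5 Sham and Naïve arrays. With a normexp background correction 0 genes were called in each of the 3 comparisons, while the log2 difference of Il1rn was 1.32 from Naïve and 1.45 from Sham rats and that of Tnf 1.25 and 1.27. Il1rn, Tnf and Csf1 stayed higher in TBI than in Naïve rats under all 19, 19 and 20 alternatives run.

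**Figure D2:**
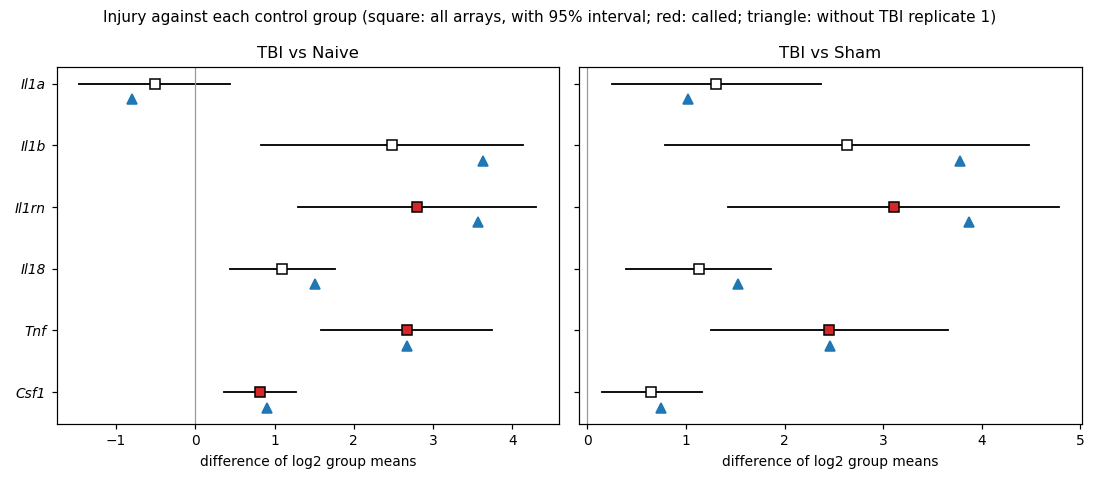
Differences of log2 group means between TBI and Naïve rats (left) and TBI and Sham rats (right) for the 6 tested genes that were detected in any of these rats. Squares with 95% intervals use all arrays and are red where the adjusted p was under 0.05, and triangles leave out TBI rat 1. Differences from groups in which a gene was not detected (Il1b in both control groups, Il1a in Sham rats) depend on the background level. So in part do those of Il1rn and Tnf, each detected on 1 Naïve and 1 Sham array. The triangles of Il1b (3.63 and 3.78) and Il18 (1.51 and 1.53) lie above their squares, and those of Tnf lie at 2.67 and 2.46, beside squares at 2.67 and 2.45. Only the omission of TBI rat 1, the lowest TBI rat for Il1b and Il18, is drawn. Leaving out TBI rat 2 or 3 instead lowered the Il1b differences, to between 1.65 and 2.32.

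The summed level of 12 markers of microglia and macrophages was 994 to 1120% of the 75th percentile in Naïve, 840 to 1490% in Sham and 1440 to 2400% in TBI rats, with 11 of the 12 detected on each Naïve and Sham array and 12 on each TBI array. Not all of them rose: 4 were called higher and 0 lower against Naïve rats, and 5 higher and 2 lower against Sham rats. The 2 lower were P2ry12 (-1.41, SE 0.28) and Tmem119 (-2.17, SE 0.39), markers of resting microglia. P2ry12 measured -1.18 to -1.16 in Naïve, -0.25 to 0 in Sham and -1.85 to -0.98 in TBI rats, so that it was the Sham rats that stood apart. Tmem119 measured -2.39 to -1.64 in Naïve, -1.23 to -1.07 in Sham and -3.99 to -2.90 in TBI rats. Its TBI values lay below those of both control groups, though it was not called against Naïve rats. The summed level of the 3 tested neutrophil markers (S100a8, S100a9 and Csf3r) was 7.52 to 10.2% in Naïve, 12.3 to 18.3% in Sham and 33.3 to 295% in TBI rats, while the defining markers Mpo and Fpr1 were detected on no array. TBI rat 1, which had no detected Il1b, was the lowest of the TBI rats on both lists (1440% and 33.3%). The 6 tested markers of T and B cells summed to 4.74 to 5.88% in Naïve, 18.6 to 25.1% in Sham and 14.9 to 30.2% in TBI rats. The part of cell numbers in the cytokine values was not tested.

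Genes known to be induced by these cytokines had the largest median difference of the 4 pathway lists. Of 23 tested target genes, 14 were called higher and 0 lower in TBI than in Naïve rats, with a median log2 difference of 1.82, and 7 higher and 0 lower than in Sham rats, with a median of 1.33. Beside these and the following lists, 2.98% of all probes were called higher and 1.73% lower than in Naïve rats, and 2.92% and 6.45% than in Sham rats. All 4 lists were chosen with earlier results of these data known, so the counts describe the lists and do not test them. The counts varied widely with the processing, from 0 to 18 targets against Naïve and 0 to 12 against Sham rats. Lcn2, an iron-binding protein of the acute phase, rose by 7.35 (SE 0.77) from Naïve and 7.36 (SE 0.86) from Sham rats. Ccl2, which draws monocytes, rose by 6.94 (SE 0.88) and 7.36 (SE 0.98). It was detected on 1 Naïve and 1 Sham array, so these differences depend in part on the background level. Timp1, an inhibitor of matrix proteases, rose by 4.83 (SE 0.68) from Naïve rats. The acute phase gene Serpina3n was detected in no Naïve rat, from which TBI rats differed by at least 181-fold (higher in TBI), with a log2 difference of 7.13 (SE 1.13) from Sham rats, of which 1 detected it. The neutrophil chemokine Cxcl1 was at least 8.1-fold higher than in Sham rats. The limma adjusted p of these values lay between 0.00177 and 0.00736.

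Of 9 tested genes on the list of processing and inflammasome genes, 3 were called higher and 0 lower in TBI than in Naïve rats. These were Casp4 by 2.25 (SE 0.36), the inflammasome adaptor Pycard by 2.02 (SE 0.33) and Casp1 by 1.57 (SE 0.29). Casp1 is the protease that releases interleukin-1 beta and interleukin-18. Casp4 (2.31, SE 0.40) and Pycard (1.33, SE 0.37) were also called against Sham rats. The count ranged from 0 to 5 against Naïve and from 0 to 4 against Sham rats over the alternatives. Casp1 was called against Naïve rats, a comparison in which neither of its substrates passed the test.

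Of 14 tested receptors and decoys, 3 were called higher and 0 lower in TBI than in Naïve rats. These were Tnfrsf1a, the main receptor of Tnf, by 1.80 (SE 0.25), the decoy receptor Il1r2, at least 4.09-fold, and Il18bp, which binds and blocks interleukin-18, by 1.40 (SE 0.37). Against Sham rats Tnfrsf1a (1.47, SE 0.28) and the oncostatin M receptor Osmr were called. Osmr was detected in 2 of 3 TBI rats and in no Sham rat, and was chosen after its values were seen. Its TBI mean was 2.49-fold above the floor of the Sham arrays, with the undetected rat at its measured value. The count of receptors ranged from 0 to 4 against Naïve and from 0 to 5 against Sham rats over the alternatives. Of the 17 signal transducers, Stat3 rose by 1.51 (SE 0.29) and Myd88, the adaptor of interleukin-1 receptors, by 1.10 (SE 0.25) from Naïve rats. From Sham rats Stat3 rose by 1.86 (SE 0.33) and the Tnf receptor adaptor Traf2 fell by 0.86 on the log2 scale (SE 0.21). The mean of Traf2 was -3.00 in Naïve, -1.95 in Sham and -2.81 in TBI rats, so that the TBI rats lay near the Naïve level and the Sham rats above both. Il1r2 and Il18bp are known to oppose the cytokines they bind.

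**Figure D3:**
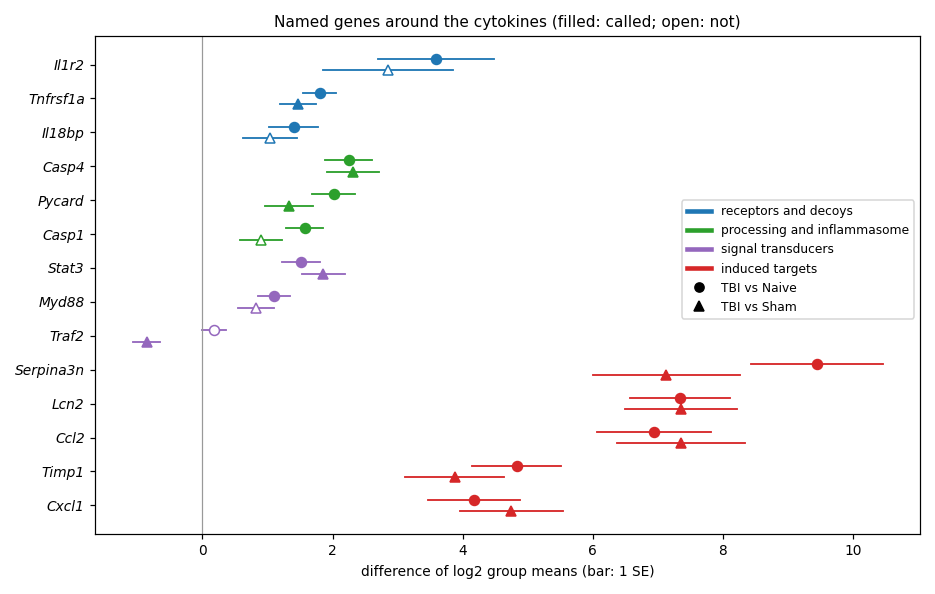
Differences of log2 group means, with bars of 1 SE, for the named genes around the cytokines, in TBI vs Naïve (circles) and TBI vs Sham rats (triangles), coloured by list and filled where called. The induced targets reach differences of 7.35 and more, the receptors, processing genes and transducers lie under 4, and Traf2 in TBI vs Sham rats lies below 0. Measured differences from groups in which a probe was not detected (Serpina3n in Naïve rats, Il1r2 and Cxcl1 in Naïve and Sham rats) depend on the background level. So in part do those from groups with 1 detected array (Ccl2 in Naïve and Sham rats, Serpina3n in Sham rats).

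The genes nearest to Il1rn, Tnf and Csf1 over the 16 arrays are given as a description. Whether they lay unusually near was not tested. Likeness was measured as the root mean square difference of log2 values centred on the Naïve mean, among 12440 named genes. The pattern of Il1rn was nearest to those of Ccl3 (0.36), Slpil2 (0.54) and Ccr1 (0.54), the first a chemokine and the last its receptor. That of Tnf was nearest to Slc1a5 (0.48), Plp2 (0.59) and Dpep2 (0.60), and that of Csf1 to Cenpn (0.15), Vat1 (0.17) and Lyl1 (0.18). The arrays share groups and scan sessions, so likeness includes the step between sessions.

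In the drug groups, most of the cytokine genes measured higher than in TBI rats, as did most probes of the array. Drug and scan session cannot be told apart in these comparisons, since every TBI array was scanned in the first session and every drug array in the second. The median difference of all tested probes from TBI rats was 0.79 for PMI, 0.99 for JM6 and 1.08 for E33, so that a cytokine gene at 0.8 to 1.1 stood with the middle of the array. Quantile normalization, which sets 1 common distribution of values for all arrays, moved these medians to -0.01, 0 and 0. It also moved the split of calls over all probes, from 12934 higher and 11 lower to 2274 and 2100 for PMI, from 15958 and 40 to 3161 and 3042 for JM6, and from 16026 and 21 to 2375 and 2278 for E33. With E1A spike-in scaling the splits were 2869 and 3540, 4099 and 3347, and 3535 and 4016, and with the 75th percentile over all probes 5426 and 2736, 6652 and 3334, and 6450 and 2768.

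Interleukin-1 beta was detected on all 8 drug arrays, at -3.54, -3.02 and -3.98 with PMI, -3.52, -2.95 and -1.82 with JM6, and -2.88 and -2.25 with E33. TBI rat 2 (-3.56) lay within this range, and TBI rat 3 (-4.59) lay below it. The antagonist Il1rn measured -2.84, -1.83 and -2.57 with PMI, -2.26, -1.87 and -0.29 with JM6, and -2.28 and -1.71 with E33. TBI+JM6 rat 3 was the highest of all 16 for both genes. Interleukin-18 was the most even, at -2.47, -2.36 and -2.23 with PMI, -2.01, -2.06 and -1.54 with JM6, and -1.85 and -1.68 with E33, all above the highest TBI rat (-2.85).

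The interleukin-6 family was detected only in the second scan session. Lif was detected on all 8 drug arrays, at -4.42, -5.17 and -4.81 with PMI, -4.90, -4.70 and -3.96 with JM6, and -4.28 and -3.82 with E33. Osm was detected on 7 of them, all but TBI+PMI 3, at -5.40, -5.07 and -5.77 with PMI, -5.39, -4.98 and -3.07 with JM6, and -4.36 and -2.74 with E33. Il6 was detected in 2 rats, TBI+PMI 1 (-4.96) and TBI+JM6 3 (-4.35), while the other 6 drug arrays lay between -7.67 and -6.56. Against the floor of the TBI arrays, Lif was at least 2.15-fold higher with PMI, 2.62-fold with JM6 and 3.62-fold with E33. Osm was at least 2.8-fold higher with JM6 and 5.34-fold with E33. With PMI, Osm was 1.47-fold higher, with undetected TBI+PMI 3 at its measured value, and was not called (limma adjusted p = 0.115). The median of all tested probes was also higher than in TBI rats, by 0.79, 0.99 and 1.08 on the log2 scale. The 1.47-fold of Osm lay under that median for PMI.

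Tnf and Csf1 differed from TBI rats by less than the median probe of the array did. Tnf measured -3.05, -2.73 and -3.58 with PMI, -3.32, -2.71 and -3.06 with JM6, and -3.28 and -2.96 with E33, against -3.64 to -3.38 in TBI rats, and the PMI arrays overlapped the TBI arrays. Csf1 measured -1.41, -0.77 and -0.99 with PMI, -0.68, -0.67 and -0.57 with JM6, and -0.69 and -0.46 with E33. Il1a was detected on all 8 drug arrays, between -5.74 and -3.96, and overlapped the TBI rats in each drug group.

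With the 75th percentile scaling, 2 of the 8 genes were called higher and 0 lower with PMI than in TBI rats (Il18 and Lif), beside 56.7% of all probes called higher and 0.0482% lower. With JM6, 6 were called higher and 0 lower (Csf1, Il18, Il1b, Il1rn, Lif and Osm), beside 69.9% and 0.175%, and with E33, 5 higher and 0 lower (Csf1, Il18, Il1b, Lif and Osm), beside 70.2% and 0.092%. Il1b, Lif and Osm passed the filter only through the drug groups in which they were high, so their calls lend no support. Of the other 5 genes, 1 was called with PMI (Il18), 3 with JM6 (Csf1, Il18 and Il1rn) and 2 with E33 (Csf1 and Il18), and these shares lay below that of the whole array. All arrays of the drug group lay above all TBI arrays for 3 of the 8 genes with PMI, beside 61.6% of probes (Osm was not detected on 1 of these PMI arrays), for 7 with JM6, beside 71.6%, and for 7 with E33, beside 83.6%. Other than for Il1b, Lif and Osm, the log2 differences of the called genes ranged from 0.74 (Csf1, SE 0.21, JM6) to 2.05 (Il1rn, SE 0.69, JM6). Their limma adjusted p lay between 0.00122 and 0.0187. The comparisons share the TBI arrays. Under quantile normalization 0 genes were called higher in any drug group. Csf1, called with JM6 and E33, then stood at -0.03 and 0, and Il1a was called lower with JM6 (-1.45, limma adjusted p = 0.016) and E33 (-1.74, limma adjusted p = 0.0152). In the authors' value table Il1a was called lower with all 3 drugs, by -0.97, -1.16 and -1.50.

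Against the median of all probes, Il1b stood at 0.92, 1.46 and 1.58 above it with PMI, JM6 and E33, Il1rn at 0.32, 1.06 and 0.45, and Il18 at 0.17, 0.45 and 0.47. Tnf stood at -0.40, -0.51 and -0.68, Csf1 at -0.47, -0.25 and -0.27, and Il1a at -0.30, -0.67 and -0.64. The 3 neutrophil markers summed to 112 to 179% with PMI, 184 to 259% with JM6 (without S100a8 on TBI+JM6 2, where its spots were left out as outliers) and up to 298% with E33, beside 33.3 to 295% in TBI rats. The 12 microglial markers summed to 1830 to 2370%, 2380 to 2840% (without Msr1 on TBI+JM6 2) and 2160 to 2680%, beside 1440 to 2400%. The sums of oligodendrocyte markers overlapped (8640 to 11200% with JM6 beside 5260 to 10400% in TBI rats). So did those of choroid plexus (40.6 to 180% beside 18.9 to 354%) and red blood cells (2680 to 4100% beside 3760 to 5620%). On the lists of T and B cells, astrocytes, neurons and endothelium, the sums of all drug arrays lay above those of all TBI arrays. The 6 tested markers of T and B cells summed to 48.7 to 78.6% on the drug arrays and 14.9 to 30.2% on the TBI arrays. With PMI, JM6 and E33, 3, 4 and 4 of the 6 were called higher. The 8 markers of astrocytes (without Glul on TBI+E33 1) summed to 6280 to 8710% beside 4810 to 5400%, with 2, 3 and 5 of the 8 called higher. The 7 tested neuronal markers summed to 2210 to 3140% beside 1450 to 2080%, with 5, 4 and 3 of the 7 called higher. The 6 markers of endothelium summed to 352 to 568% beside 278 to 296%, with 3 called higher with each drug. Of all probes, 56.7, 69.9 and 70.2% were called higher with PMI, JM6 and E33. The part of these cells in the cytokine values was not tested.

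**Figure D4:**
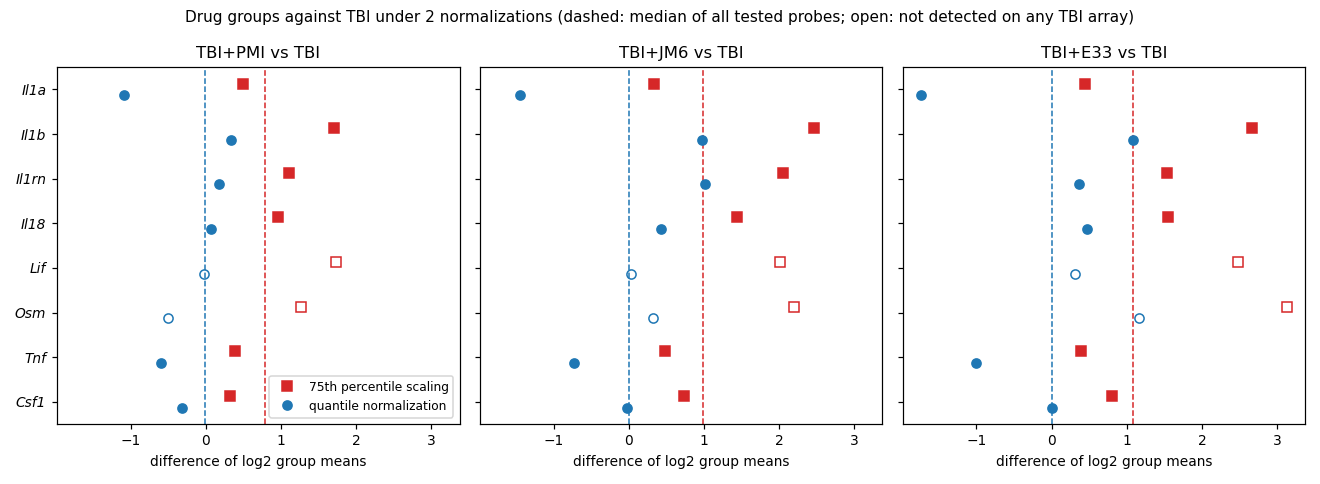
Differences of log2 group means between each drug group and TBI rats for the 8 tested genes, with the 75th percentile scaling (red squares) and with quantile normalization (blue circles). Open symbols mark Lif and Osm, which were not detected on any TBI array, so that their positions depend on the background level. Dashed lines give the median of all tested probes, at 0.79, 0.99 and 1.08 for the squares and at -0.01, 0 and 0 for the circles. Each circle lies below its square, and the circles of Il1a and Tnf in each drug group, of Osm, Csf1 and Lif with PMI and of Csf1 with JM6 lie below 0 where the squares lie above it.

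Single rats decided some of these counts. Without TBI rat 1, 1 gene (Lif) was called with PMI, and without TBI rat 2, 3 were (Il18, Lif and Il1b). Without TBI+JM6 rat 3, 3 genes were called with JM6 (Csf1, Il18 and Lif), and without TBI+E33 rat 2, 3 were called with E33 (Il18, Lif and Osm).

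The drug groups were also compared among themselves, within the second scan session, and in no pair was a cytokine gene called. In JM6 vs PMI the called share of all probes was 0.0131%, in E33 vs PMI 0.11% and in E33 vs JM6 0.0175%. The number of the 8 genes at an unadjusted limma p under 0.05 was 0, 1 and 0, and the 1 was Osm, higher with E33 than with PMI by 1.86 (95% interval 0.26 to 3.46, adjusted p = 0.261). No slide held both PMI and E33 arrays, so that pair differs in slide as well as in drug. Osm of TBI+JM6 1 differed from the PMI arrays of its slide by 0.02. Within slide 4, Osm differed by 0.48 between E33 and JM6. The intervals leave room for differences of some size. That of Il1b reached from -0.90 to 2.39 in JM6 vs PMI and from -1.64 to 2.04 in E33 vs JM6, and that of Tnf from -0.98 to 1.17 and from -1.29 to 1.11. Csf1, with the narrowest intervals, reached from -0.03 to 0.87 and from -0.45 to 0.57.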

How the data were processed

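RNA of whole hippocampus was hybridized to single-colour Agilent 4x44K rat arrays, 1 per rat. Per the file headers, Agilent Feature Extraction 9.5.3.1 subtracted background and detrended the spot intensities, which were not scaled between arrays. The authors also deposited a table of ratios to the 75th percentile of each array, made in GeneSpring per the methods; its exact scaling is not given in the sources used here, and it served only as an alternative. Spots flagged as outliers and control spots were left out, spots of a probe were averaged, and each intensity was divided by the 75th percentile of the probes well above background on its array and taken as log2. Probes well above background on all arrays of at least 1 group were tested (22821 of 30367), in 1 limma 3.58.1 fit over all 16 arrays (10 residual degrees of freedom) with R 4.3.3, with Benjamini-Hochberg adjustment over all tested probes and calls under 0.05. The steps were tested on simulated data. The methods used a t-test without adjustment at a fold over 1.2; it was run as an alternative. A gene is its tested probe with the highest mean. P-values set a difference of groups against the spread between rats within groups, pooled over all groups, and the number of arrays limits the precision. That spread includes slide differences where a group lay on more than 1 slide.

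Scanning took place in 2 sessions, each of 2 slides with 4 arrays. Naïve 1 and 2 and Sham 1 and 2 shared slide 1, Naïve 3 and the TBI rats slide 2, the TBI+PMI rats and TBI+JM6 1 slide 3, and TBI+JM6 2 and 3 and the TBI+E33 rats slide 4. The methods state 3 rats per group, and 2 Sham and 2 TBI+E33 arrays were analysed here. The cytokine genes and the lists of receptors, processing genes, transducers, targets and cell markers were chosen with earlier results of these data known. Named pathway genes were the called genes of each list with the largest difference, up to 4 higher and 2 lower, detected on every array of the higher group. Motifs were searched in the RefSeq promoter table (GRCr8). Alternatives changed the background correction, scaling, filter, probe rule, test, slide or replicate block, fitted samples and left-out array.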

Additional observations from a re-analysis of the deposited data

How the results depend on the processing

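The cause of the changes below was not tested, except that fewer arrays or fewer probes entered by construction where a setting leaves them out. In TBI vs Naïve rats 3 cytokine genes were called, but 0 with normexp background correction, with the methods' t-test after Benjamini-Hochberg and with limma on the compared groups alone, and 1 without a filter on dim probes and with slide as a fixed block; leaving out 1 rat gave 1 to 5. In TBI vs Sham rats 2 were called, but 0 with normexp, the adjusted t-test and the groups alone, 1 with the filter on all arrays, the unadjusted t-test and the fixed slide block, and 5 with the 75th percentile over all probes, the authors' table and slide as a random block; leaving out 1 rat gave 0 to 5. In Sham vs Naïve rats 1 was called, but 0 with normexp, E1A spike-in scaling, no filter, the filter on all arrays, the adjusted t-test, the groups alone, the fixed slide block and the replicate block, and 0 without any 1 rat. With PMI against TBI 2 were called, but 0 with normexp, quantile normalization and E1A scaling, and 1 with the percentile over all probes, the filter on all arrays, the authors' table (Il1a, lower) and the adjusted t-test; leaving out 1 rat gave 1 to 3. With JM6 6 were called, but 0 with E1A scaling, 1 with normexp, quantile normalization (Il1a, lower), the percentile over all probes and the authors' table (Il1a, lower), and 2 with the filter on all arrays and the adjusted t-test; leaving out 1 rat gave 3 to 6. With E33 5 were called, but 0 with normexp, 1 with quantile normalization (Il1a, lower), E1A scaling, the authors' table (lower) and the adjusted t-test, 2 with the percentile over all probes and the filter on all arrays, and 3 with the unadjusted t-test; leaving out 1 rat gave 3 to 6. In E33 vs PMI the unadjusted t-test called 1 gene where limma called 0, and in all 3 pairs of drugs leaving out 1 rat gave 0.

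Among the genes detected in TBI, Naïve or Sham rats, Il1a in TBI vs Naïve rats turned sign, at 0.29 with normexp. Among the genes called against TBI in a drug group, signs turned as follows (values of Lif are fitted against undetected TBI arrays). With PMI, Il18 was -0.01 with E1A scaling, and Lif was -0.03 with quantile normalization and -0.07 in the authors' table. With JM6, Csf1 was -0.03 with quantile normalization and in the authors' table, -0.05 with the percentile over all probes and -0.29 with E1A scaling, and Lif was -0.05 in the authors' table. With E33, Csf1 was 0 with quantile normalization, -0.03 with the percentile over all probes and -0.44 with E1A scaling. Over the detected genes of both injury comparisons and Il1a in Sham vs Naïve rats, 176 of 244 combinations of a gene and a setting kept direction and side of the threshold, 50 lost the call, 17 gained it and 1 turned sign, and over the 13 calls against TBI 149 kept both, 74 lost the call and 11 turned sign. Genes not called against TBI turned sign more often: with PMI, JM6 and E33 Il1a kept its sign in 13 of 18, 13 of 18 and 12 of 17 settings and Tnf in 13 of 18, 14 of 18 and 12 of 17, and with PMI Csf1 kept it in 15 of 19 and Osm in 15 of 18. In Sham vs Naïve rats, where Il1a and Lif kept their sign in 18 of 18, Tnf kept it in 13 of 18. Counts of called transducers ranged from 0 to 6 against Naïve and 0 to 7 against Sham rats.

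Over all probes, TBI vs Naïve calls were 1075, but 40 with normexp, 15 with the groups alone and 175 with the fixed slide block, and TBI vs Sham calls were 2138, but 2, 10 and 60. Replicate numbers are the labels' own and did not pair the rats: deviations of same-numbered rats of a session correlated between -0.185 and 0.182 (median -0.0123, 14 pairs), and with the replicate block the counts in the order above were 4, 2, 0, 3, 6, 6 and 0 in each pair of drugs. The fixed slide block could not be fitted for drugs against TBI, and the random slide block had a consensus correlation of -0.0878. Probes under background on an array have no order there.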
